A study of Homo sapiens with 2 samples.

Results

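The insulin-like growth factor (IGF) members measured here were the ligands IGF1 and IGF2, the receptor IGF2R and the binding proteins IGFBP1 to IGFBP7. They were found as all probes that carry one of these 10 gene names, 20 probes on 38 spots of each array. The array holds 30238 gene names, with 41000 probes on 43376 spots. A2780 is a human ovarian cancer cell line of likely endometrioid origin. A2780CBN had been selected in rising doses of carboplatin, up to 22.2 µM, and A2780CBNDXL in carboplatin together with docetaxel, whose final doses are stated differently in the labels and the methods and are not given here. Each line was compared with A2780CC, parental cells co-cultured as a control, and per the methods each resistant line had such a control of its own. Total RNA of each line was a pool of 3 isolations and counts as 1 sample, which 4 two-colour arrays repeat, with the resistant line in Cy5 on 2 arrays and in Cy3 on the other two.

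Among the 10 members, IGFBP6 was the single gene past the 2-fold limit in both lines, and it went in opposite directions. It rose in A2780CBN, with a log2 ratio of 1.11 ± 0.08 (SD, n = 4 arrays), and it fell by 2.61 ± 0.23 on the log2 scale in A2780CBNDXL. IGFBP2 fell in A2780CBN by 1.16 ± 0.34 on the log2 scale. IGFBP1 and IGFBP7 were above background on no array, and IGF1 on 1 array of A2780CBNDXL. A log2 ratio of 1 is a 2-fold higher signal in the resistant line than in its control. For a gene to count as changed, its mean log2 ratio had to reach 1 in either direction with the same sign on all 4 arrays. In addition, at least one of the channels had to be well above background on all 4 arrays. As each line is 1 sample, the SD between arrays covers the error of labelling and hybridization, and the lines could not be tested across samples.

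IGF1 and IGF2 are secreted growth factors that activate the tyrosine kinase receptor IGF1R and, through IRS docking proteins, the PI3K-AKT branch. IGF2R, the cation-independent mannose 6-phosphate receptor, takes up IGF2 for degradation in lysosomes and does not signal as a kinase. The binding proteins hold IGFs in the extracellular fluid and thereby limit or prolong their access to IGF1R, and proteases such as PAPPA release the IGFs again. IGFBP6 is known for binding IGF2 in preference to IGF1. Ovarian carcinoma cells are known to make and respond to IGFs.

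The sequences of the IGFBP6 and IGFBP3 probes are shown because a single 60-base probe carries each of these results. On NCBI36, the IGFBP6 probe lies at chr12:51781120-51781179 on the plus strand. The IGFBP3 probe spans chr7:45922739-45923343 on the minus strand, longer than its 60 bases, so that it joins exons.
IGFBP6 probe: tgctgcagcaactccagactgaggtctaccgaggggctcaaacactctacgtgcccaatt
IGFBP3 probe: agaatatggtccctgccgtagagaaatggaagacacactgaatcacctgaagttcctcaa

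The promoter of IGFBP6, the member that changed in both lines, is shown as the 250 bases before its RefSeq start at chr12:53097417-53097666 on GRCh38.p14, plus strand. Capitals mark matches to the motifs searched on both strands, which were the GC box GGGCGG, the TATA box TATAAA, the forkhead motif GTAAACA and the E-box CACGTG, none of which overlaps another there.
IGFBP6 promoter: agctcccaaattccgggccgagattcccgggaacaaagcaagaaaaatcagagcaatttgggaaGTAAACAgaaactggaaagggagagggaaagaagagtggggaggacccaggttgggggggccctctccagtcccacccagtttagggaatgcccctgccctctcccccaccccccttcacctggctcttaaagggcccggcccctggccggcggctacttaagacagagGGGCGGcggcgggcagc
The forkhead motif starts 186 bases before the start of the gene and the GC box starts 17 bases before it. Of the 35116 promoters of RefSeq genes, 2.98% held the forkhead motif in the same window and 42.6% held the GC box. RefSeq promoters were found for 7 of the 10 members, and besides IGFBP6 the forkhead motif was matched in a promoter of IGF1. A match shows that these letters are present and nothing about binding.

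The array files passed simple checks of their labels before the members were read. On an array, 59.8% to 67.5% of the spots of a channel were well above background. After each reverse labelled array was turned over, log2 ratios of arrays of a line with opposite labelling correlated at 0.58 to 0.74 over all probes. Arrays of a line with the same labelling correlated more closely, at 0.85 to 0.90, so the labelling direction left a mark on the ratios. Arrays of different lines correlated at 0.11 to 0.23 with opposite labelling and at 0.20 to 0.28 with the same labelling. Single channels, scaled between arrays and centred per probe over 22694 probes, correlated at 0.08 to 0.53 between control channels of the different lines and at -0.37 to -0.15 between their resistant channels. Within a line the ranges were 0.16 to 0.74 for control channels and 0.63 to 0.89 for resistant channels. Centring per probe lowers such correlations, so negative values do not show opposed profiles. Of 9 ovarian carcinoma markers, PAX8, KRT8, KRT18 and VIM were above background in every channel of all arrays, while WT1, KRT7, MUC16 and CDH1 were above it in none. EPCAM was above background on all arrays in both resistant lines and in the A2780CBN control, but not on all in the A2780CBNDXL control. Among markers of other cells, PTPRC of leukocytes and PECAM1, CDH5 and KDR of endothelium were above background on no array, while the leukocyte markers CD3E and CD68 were above it on all. The summed signal of the 4 leukocyte markers was 151 to 255 units over all channels. All 6 fibroblast markers were above background on all arrays of both resistant lines and of the A2780CBNDXL control. In the A2780CBN control 5 were, and LUM was above it on no array. The summed signal of the 6 fibroblast markers was 37301 to 47023 in A2780CBN against 14436 to 22252 in its control. In A2780CBNDXL the summed fibroblast markers gave 52671 to 72035 against 18859 to 25580. The summed signal of the ovarian carcinoma markers was 233135 to 319737 in A2780CBN against 73719 to 176099, and 199454 to 310425 in A2780CBNDXL against 168955 to 246446, where the ranges overlapped. The fibroblast sums were thus higher than in the controls in both resistant lines, and the ovarian carcinoma sum in A2780CBN, and the part of these differences in the results below was not tested. A change in the number of cells of a type and a change in RNA per cell cannot be told apart in pooled RNA.

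In A2780CBN, 2 of the 7 members that could be measured changed, 1 in each direction, beside a background of 12.6% of the 17951 genes measured in that line. In A2780CBNDXL, 1 of 5 measured members changed, beside 16.9% of 17116 genes. These counts take IGF2 by its brightest probe, which faces away from the gene, as given below. The median log2 ratio of the measured members was -0.18 in A2780CBN and 0.06 in A2780CBNDXL, the latter being the value of that probe, and that of all measured genes was -0.06 and 0.04. With so few members measured, these shares hold no statement about the family as a whole.

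IGF1, the ligand with the higher affinity for IGF1R, gave no usable level. It had 4 probes, and the single array on which any of them was well above background was an A2780CBNDXL array, for 1 probe and in both channels. The signals of its brightest probe ran from 5.92 to 37.9 units in the resistant channels and from 5.45 to 20.5 units in the control channels. A difference between the lines and their controls could not be detected at these signals.

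IGF2, the ligand that binds both IGF2R and IGF1R, had 4 probes that did not give the same picture. The brightest, A_24_P936758, gave signals of 259, 367, 193 and 200 units in A2780CBN and 324, 413, 200 and 294 in the control on arrays 1 to 4. In A2780CBNDXL it gave 615, 430, 353 and 193 units, and 552, 467, 232 and 258 in the control. Resistant and control signals of this probe overlapped in both lines, and the log2 ratios were -0.27 ± 0.22 and 0.06 ± 0.43 (SD, n = 4 arrays). The coordinates of this probe, chr11:2109988-2110047, ran on the plus strand, whereas both probes assigned to the RefSeq transcript of IGF2 ran on the minus strand. Over the array, 99.5% of 18334 probes of RefSeq transcripts ran in the direction of their gene, so the brightest probe named IGF2 faces away from IGF2.

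The brighter of the minus-strand IGF2 probes, A_23_P150609 at chr11:2106970-2107029, gave 73.5, 69.3, 80.5 and 95.9 units in A2780CBN and 31.4, 30.5, 50.4 and 35.7 in the control. Every A2780CBN signal was above every control signal, and the log2 ratio was 1.13 ± 0.32 (SD, n = 4 arrays) with both channels above background on all 4 arrays. This value was close to the limit, and values of this probe alone under other background corrections are not given here. As a mean over all IGF2 probes the A2780CBN value was 0.33, under the limit. In A2780CBNDXL the same probe gave 17.3, 9.94, 16.7 and 24.4 units, none above background, and its control was above background on 1 array. With this probe standing for IGF2, 3 members changed in A2780CBN in place of 2, and IGF2 was not among the measured members of A2780CBNDXL. The remaining 2 probes of IGF2 were above background on no array.

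IGF2R had 2 probes on chromosome 6, and they gave the same order. The brighter one, A_23_P334021 at chr6:160447104-160447163, gave 3196, 3457, 2309 and 2960 units in A2780CBN and 1756, 1626, 1294 and 1428 in the control. All A2780CBN signals were above all control signals, but the log2 ratio of 0.96 ± 0.13 (SD, n = 4 arrays) stayed under the 2-fold limit. The other probe gave 0.65 ± 0.15. In A2780CBNDXL the signals were 924, 2486, 1814 and 1591 units against 1004, 2174, 1794 and 1636, with a log2 ratio of 0.01 ± 0.13. Array 1 was dimmer in both channels there. Against the control channels of the A2780CBNDXL arrays, A2780CBN had a log2 ratio of 1.03 for IGF2R, which is past the limit.

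**Figure D1:**
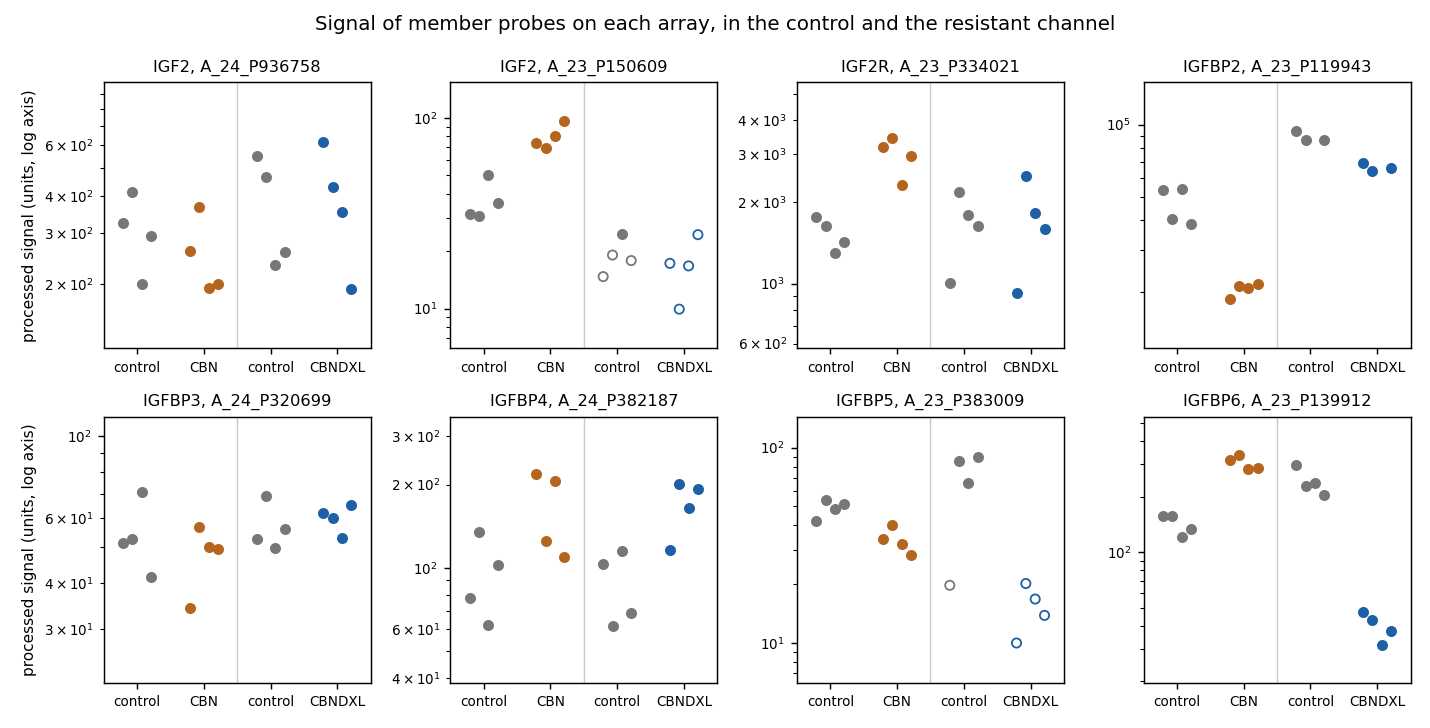
Processed signal in units, on a log axis, of 8 probes of the members above background, for the control and the resistant channel of the 4 arrays of each line. Each point is 1 array in the order of arrays 1 to 4, and open points were not well above background. IGFBP6 was above its control in A2780CBN, with 281 to 337 units, and below it in A2780CBNDXL, with 31.4 to 47.5 units.

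IGFBP6 is encoded on chromosome 12 and was measured by 1 probe. Its signals in A2780CBN were 317, 337, 281 and 288 units on arrays 1 to 4, and those of the control were 157, 158, 121 and 134. In A2780CBNDXL they were 47.5, 43.1, 31.4 and 37.3 units, and those of the control were 298, 228, 238 and 205. The groups did not overlap in either line, and all 16 channel values were well above background. The ratio corresponds to 2.15-fold higher in A2780CBN and 6.09-fold lower in A2780CBNDXL. Single arrays gave log2 ratios of 1.02 to 1.21 in A2780CBN, and of -2.92 to -2.40 in A2780CBNDXL.

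The rise of IGFBP6 in A2780CBN was close to the limit and was lost under other settings. With normexp background correction it was 0.48 at an offset of 50 and 0.79 at an offset of 1, and against the control channels of the other line's arrays it was 0.39. In A2780CBNDXL the log2 ratio was -0.82 at an offset of 50, under the limit, and -1.64 at an offset of 1. Against the control channels of the A2780CBN arrays it was -1.89. The direction was the same in each of these settings. After removal of genes with a dye or slide term, a refinement from the methods, IGFBP6 was called in neither line.

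IGFBP2 is a secreted binding protein whose gene lies beside IGFBP5 on chromosome 2. Its single probe, at chr2:217237331-217237390, gave 18687, 21303, 20788 and 21680 units in A2780CBN and 53320, 40267, 53946 and 38473 in the control. Every A2780CBN signal was below every control signal, and the fold was larger on the forward labelled arrays, with log2 ratios of -1.51 and -1.38, than on the reverse labelled ones, with -0.92 and -0.83. In A2780CBNDXL the spot of array 3 had been marked as an outlier and was left out, so that the gene did not enter the count there. The other arrays gave 69404, 64307 and 65899 units against 93761, 86372 and 85998, and a log2 ratio of -0.42 ± 0.03 (SD, n = 3 arrays). All 3 values were lower in the resistant line by less than 2-fold. Against the control channels of the A2780CBN arrays the direction turned, with a log2 ratio of 0.40.

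IGFBP5, which binds IGFs and components of the extracellular matrix, had 3 probes. The brightest, A_23_P383009 at chr2:217245412-217245471, gave 34.0, 40.4, 32.3 and 28.4 units in A2780CBN and 41.9, 53.7, 48.8 and 51.4 in the control, with a log2 ratio of -0.54 ± 0.24 (SD, n = 4 arrays). The ranges did not overlap, but the difference was under 2-fold. In A2780CBNDXL this probe gave 9.99, 20.2, 16.8 and 13.8 units, none above background. The control gave 85.3, 66.3 and 89.7 units on arrays 2 to 4, which were above background, and 19.7 on array 1, which was not. With the control above background on 3 of 4 arrays the gene did not enter the count, and A2780CBNDXL was at least 2.52-fold lower. Without array 1 it entered the count. Such a bound compares the mean of the bright channel with, on each array, the higher of the probe's own dim signal and the lowest signal among probes well above background, after scaling between arrays, with both labelling directions on each side. A second IGFBP5 probe, again with no resistant signal above background, was at least 1.14-fold lower in A2780CBN, with the control above background on 3 arrays, and at least 1.25-fold lower in A2780CBNDXL, with the control above it on 2 arrays. Between the nearest probes of IGFBP2 and IGFBP5 lay 8021 bases.

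IGFBP4, a binding protein that PAPPA cleaves, showed a difference between labelling directions. Its probe at chr17:35866834-35866893 gave 219, 125, 206 and 109 units in A2780CBN and 77.7, 135, 62.2 and 103 in the control. On the forward labelled arrays 1 and 3 the log2 ratios were 1.5 and 1.73, and on the reverse labelled arrays 2 and 4 they were -0.12 and 0.09. In A2780CBNDXL the higher log2 ratios were those of the reverse labelled arrays, with 1.71 and 1.49, and the forward labelled ones gave 0.17 and 0.51. The means of 0.80 ± 0.95 and 0.97 ± 0.74 (SD, n = 4 arrays) were under the limit in both lines. Without array 1 or without array 4, IGFBP4 passed it in A2780CBNDXL, at 1.06 and 1.02.

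IGFBP3, the main carrier of IGFs in blood, gave no difference. Its exon-joining probe gave 34.3, 56.9, 50.2 and 49.4 units in A2780CBN against 51.4, 52.7, 70.5 and 41.6, and the log2 ratio was -0.18 ± 0.42 (SD, n = 4 arrays). In A2780CBNDXL it gave 62.1, 59.9, 53.0 and 65.3 units against 52.7, 68.9, 49.7 and 56.1, with a log2 ratio of 0.09 ± 0.20. Resistant and control signals overlapped in both lines. A second IGFBP3 probe, on 10 spots, was above background on no array.

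IGFBP1, the binding protein regulated by insulin in liver, was represented by 1 probe that lay 19582 bases from the nearest IGFBP3 probe on chromosome 7. No IGFBP1 signal was above background in any channel, and values ran from 5.46 to 12.3 units in the resistant lines and from 5.44 to 15.2 in the controls. IGFBP7, which binds insulin and IGFs weakly, was likewise above background on no array. For these genes a change cannot be given.

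**Figure D2:**
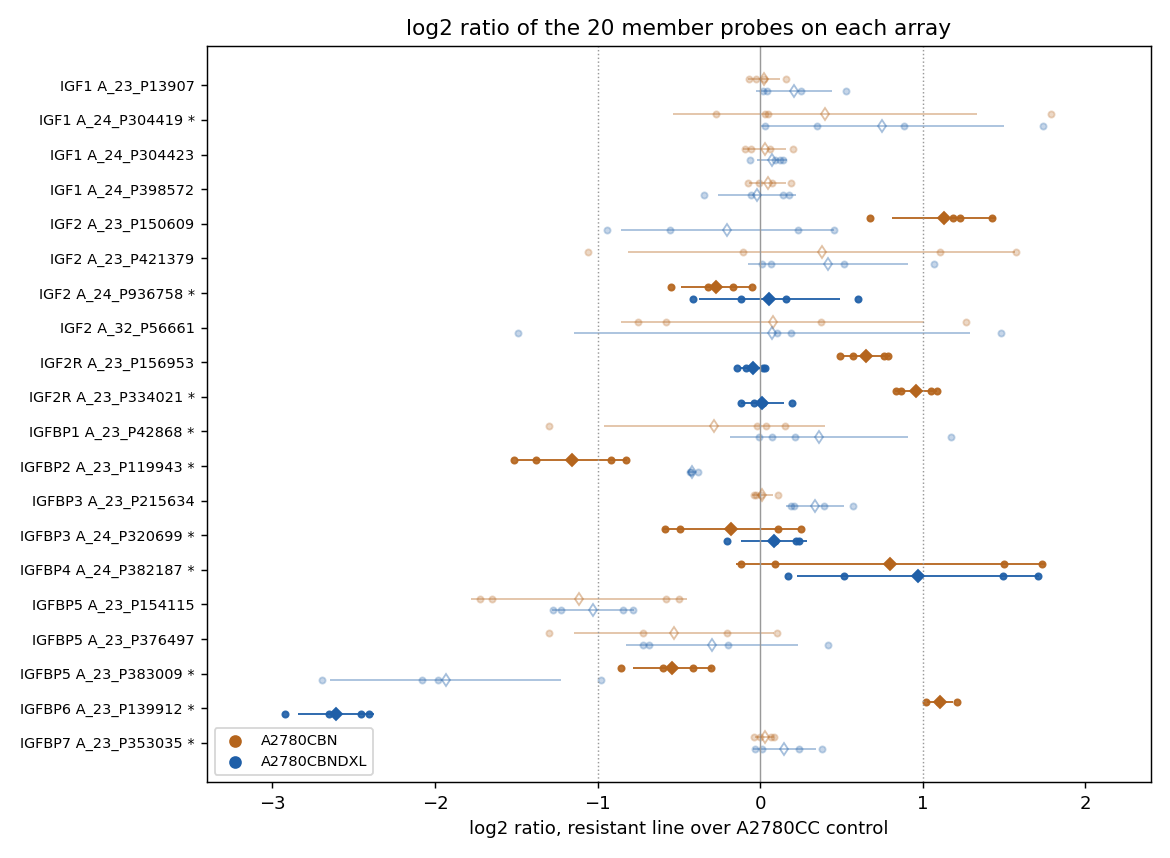
log2 ratio of resistant line over control for all 20 member probes, with small points for single arrays, diamonds for the mean and bars for the SD over arrays. Pale open diamonds mark probes with neither channel well above background on all 4 arrays, an asterisk marks the probe that stands for its gene, and dotted lines mark the 2-fold limit. The A2780CBN and A2780CBNDXL values of IGFBP6 lie past the limit on opposite sides.

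The arrays also allow the lines to be set beside each other. A member was counted as different when its mean log2 ratios differed by at least 1 and the ranges over arrays did not overlap. This held for 1 of 5 members measured in both lines, with IGF2 taken by its plus-strand probe. This was IGFBP6, beside 16.4% of the 16131 genes measured in both. Of these genes, 296 changed in both lines in opposite directions, and IGFBP6 was the only member among them. The difference for IGFBP6, A2780CBNDXL minus A2780CBN, was -3.71 on the log2 scale.

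Since each comparison has its own control channel, the resistant and the control channels were also compared between arrays of the same slide and labelling after scaling. The resistant channel of IGFBP6 was lower in A2780CBNDXL than in A2780CBN by a log2 difference of -3.00 ± 0.33 (SD, n = 4 array pairs), while the control channel was higher by 0.71 ± 0.37. For IGFBP2 both channels were higher on the A2780CBNDXL arrays, the resistant one by 1.46 ± 0.44 and the control one by 0.79 ± 0.13 over 3 pairs. For the minus-strand IGF2 probe both were lower, by a log2 difference of -2.42 ± 0.32 in the resistant channel and -1.09 ± 0.27 in the control channel. On the A2780CBNDXL arrays the resistant signals of this probe were all below background and its control signals mostly so. The size of these IGF2 differences is therefore not measured. The IGF2R resistant channel differed by -1.01 ± 0.52 and its control channel by -0.07 ± 0.44. Thus for IGFBP6 and IGFBP2 the control channels differed between the comparisons by more than their SD over pairs. Those of the minus-strand IGF2 probe did so too, but with A2780CBNDXL control signals mostly below background.

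**Figure D3:**
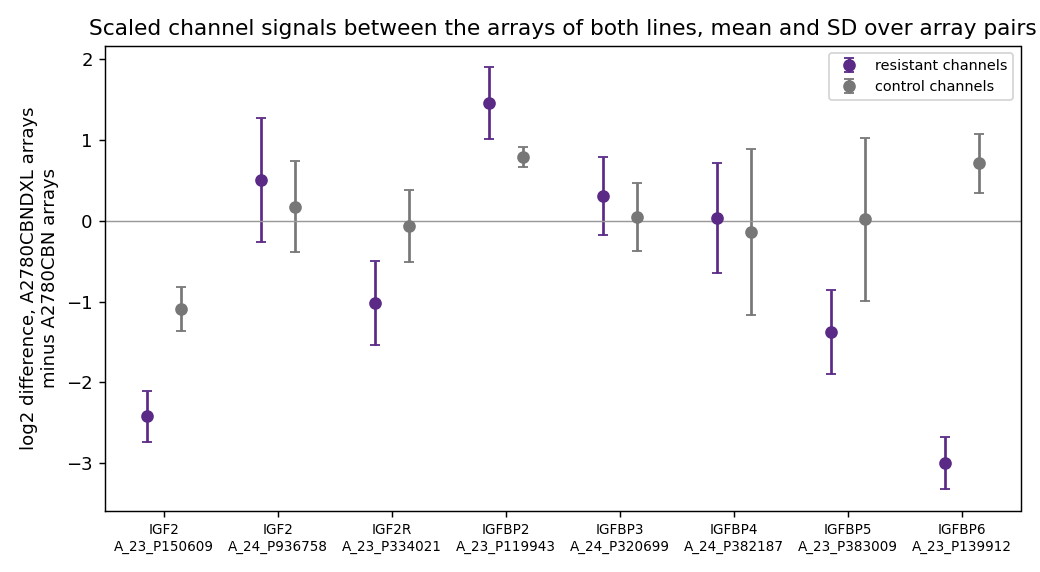
log2 difference of scaled channel signals, arrays of A2780CBNDXL minus arrays of A2780CBN, with points for the mean and bars for the SD over pairs of arrays of the same slide and labelling. For IGFBP6 the resistant channels differed by -3.00 and the control channels by 0.71. Values of a channel below background are drawn as measured.

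The genes whose log2 ratios over the 8 arrays were nearest to those of IGFBP6, by the root mean square difference among 10865 named genes measured in both lines, were GRIK1 at 0.25, GALNTL1 at 0.33 and CTSH at 0.35. GRIK1, a glutamate receptor subunit, had log2 ratios of 0.83 ± 0.08 and -2.65 ± 0.21 in A2780CBN and A2780CBNDXL. GALNTL1 had 1.38 ± 0.37 and -2.66 ± 0.10. CTSH, a lysosomal protease, had 1.41 ± 0.07 and -2.62 ± 0.27.

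The other genes of the pathway were taken from 7 lists with 65 genes, of which 64 were on the array. In A2780CBN, 10 of the 48 measured pathway genes changed, 7 higher and 3 lower, beside a background of 8.0% higher and 4.55% lower over all genes. In A2780CBNDXL, 11 of 45 changed, 1 higher and 10 lower, beside 7.7% higher and 9.2% lower. IGF1R, PAPPA and CCN2 changed in the same direction in both lines, and FOXO1 and PLAGL1 in opposite ones. The median log2 ratio of the measured pathway genes was 0.16 in A2780CBN and -0.05 in A2780CBNDXL. By the rule used for the members, 14 of 44 pathway genes differed between the lines, beside 16.4% of all genes measured in both. Among these 14 were PIK3R3, INPPL1 and RPS6KB1, which changed against the control in neither line.

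Among 11 receptors and docking proteins, IGF1R, the receptor kinase for both ligands, fell in both lines. Its signals were 30.2 to 46.0 units against 172 to 237 in A2780CBN and 211 to 255 against 516 to 758 in A2780CBNDXL. The groups did not overlap in either line, and the log2 ratios were -2.46 ± 0.27 and -1.47 ± 0.12 (SD, n = 4 arrays). Against the control channels of the A2780CBN arrays, however, the A2780CBNDXL value was 0.14, so the fall in that line rests on its own control. In A2780CBN the value was -0.65 with normexp at an offset of 50, under the limit, and -1.06 as a mean over the probes. In A2780CBNDXL the mean over the probes was under the limit. The other 2 probes of IGF1R were above background in no resistant channel.

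The insulin receptor INSR gave 0.91 ± 0.41 and 0.55 ± 0.25, under the limit in both lines. IRS2, a docking protein of both receptors, rose in A2780CBN by a log2 ratio of 1.99 ± 0.58, while its other 2 probes gave 0.10 ± 0.25 and -0.33 ± 0.30. Over the settings tried, the IRS2 value there was 0.59 at its lowest, under the limit. In A2780CBNDXL no resistant signal of the first probe was above background, its control was above it on 2 arrays, and it was not counted. GRB14, an adaptor that inhibits the insulin receptor, fell in A2780CBN by 1.80 ± 0.26 on the log2 scale and gave -0.85 ± 0.42 in A2780CBNDXL. Its A2780CBN value was -0.98 at its weakest over the settings tried. GRB10, a related imprinted adaptor, gave -0.45 ± 0.28 in A2780CBN and fell in A2780CBNDXL by 1.52 ± 0.37.

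In the PI3K-AKT branch 17 of 18 genes were measured in each line, and 16 of them stayed under the limit in each. The exception was FOXO1, a forkhead factor that AKT keeps out of the nucleus. It gave 221 to 268 units against 54.6 to 77.6 in A2780CBN, with a log2 ratio of 1.97 ± 0.24. Over the settings tried, the FOXO1 value there was 0.58 at its lowest, under the limit. In A2780CBNDXL it gave 6.25 to 16.1 units, above background on no array, against 42.7 to 138, and was at least 3.86-fold lower. A second FOXO1 probe gave 0.92 ± 1.77 and -0.75 ± 2.31, with no common sign over the arrays.

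Among the 10 partners, proteases and protease inhibitors, PAPPA, the metalloprotease that cleaves IGFBP4 and IGFBP5, rose in both lines. It gave 1428 to 1729 units against 20.9 to 41.5 in A2780CBN, with a log2 ratio of 5.76 ± 0.41. In A2780CBNDXL it gave 67.3 to 118 units against 12.6 to 29.4, with a log2 ratio of 2.19 ± 0.23. The control was above background on 2 arrays of A2780CBN and on 1 of A2780CBNDXL, so that these ratios rest on dim control signals. Over the settings tried, the PAPPA value in A2780CBNDXL was 0.39 at its lowest, under the limit. A second PAPPA probe was at least 16.7-fold higher in A2780CBN and above background in neither channel in A2780CBNDXL.

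HTRA1, a serine protease that cleaves IGF binding proteins, rose in A2780CBN to 159 to 229 units and was above background in no control channel, which makes it at least 8.43-fold higher. Its log2 ratio there was 0.66 at its lowest over the settings tried, under the limit. STC2, an inhibitor of PAPPA, gave -0.84 ± 0.12 in A2780CBN and fell in A2780CBNDXL by 3.70 ± 0.44, with 326 to 727 units against 5432 to 6342. IDE, the enzyme that degrades insulin and IGF2, fell in A2780CBNDXL by 1.21 ± 0.16. None of the 3 IGF2 mRNA-binding proteins changed, and their log2 ratios lay between -0.43 and -0.14 in A2780CBN, and between -0.68 and 0.45 in A2780CBNDXL.

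Of the 6 genes on the array from the IGF2 locus and its imprinted partners, 5 were measured in A2780CBN and 3 rose, beside 8.0% higher over all genes. H19, the noncoding RNA beside IGF2, had a log2 ratio of 1.06 ± 0.62 there, which was 0.51 with normexp at an offset of 50, and 0.51 ± 0.20 in A2780CBNDXL. In A2780CBN the forward labelled arrays gave 1.57 and 1.62 for H19, and the reverse labelled ones 0.57 and 0.48. CDKN1C, an imprinted inhibitor of cyclin-dependent kinases, had 1.66 ± 0.09 and 0.10 ± 0.29. PLAGL1, an imprinted zinc finger factor, gave 2658 to 3214 units against 986 to 1360 in A2780CBN, with a log2 ratio of 1.35 ± 0.09. In A2780CBNDXL it gave 41.8 to 76.6 units against 1044 to 1348 and fell by 4.28 ± 0.36. A second PLAGL1 probe gave 1.16 ± 0.64 and -1.97 ± 0.91, the same directions with a smaller size in A2780CBNDXL.

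In the IGFBP-related group, which holds the CCN matrix proteins, 4 of 10 genes were measured in each line. CCN2 fell in both, by 2.77 ± 0.29 in A2780CBN, while in A2780CBNDXL no resistant signal was above background and it was at least 25.9-fold lower. CCN1 gave 0.06 ± 0.10 in A2780CBN and fell by 1.71 ± 0.18 in A2780CBNDXL. On the growth hormone axis, GHR, the growth hormone receptor, gave 0.87 ± 0.08 in A2780CBN and was at least 4.81-fold lower in A2780CBNDXL. Over the settings tried, the GHR log2 ratio in A2780CBNDXL was -0.39 at its weakest, under the limit. SOCS2, an inhibitor of growth hormone signalling, gave -0.39 ± 0.42 in A2780CBN and fell in A2780CBNDXL by 6.03 ± 0.22, from 11381 to 16659 units in the control to 195 to 243.

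**Figure D4:**
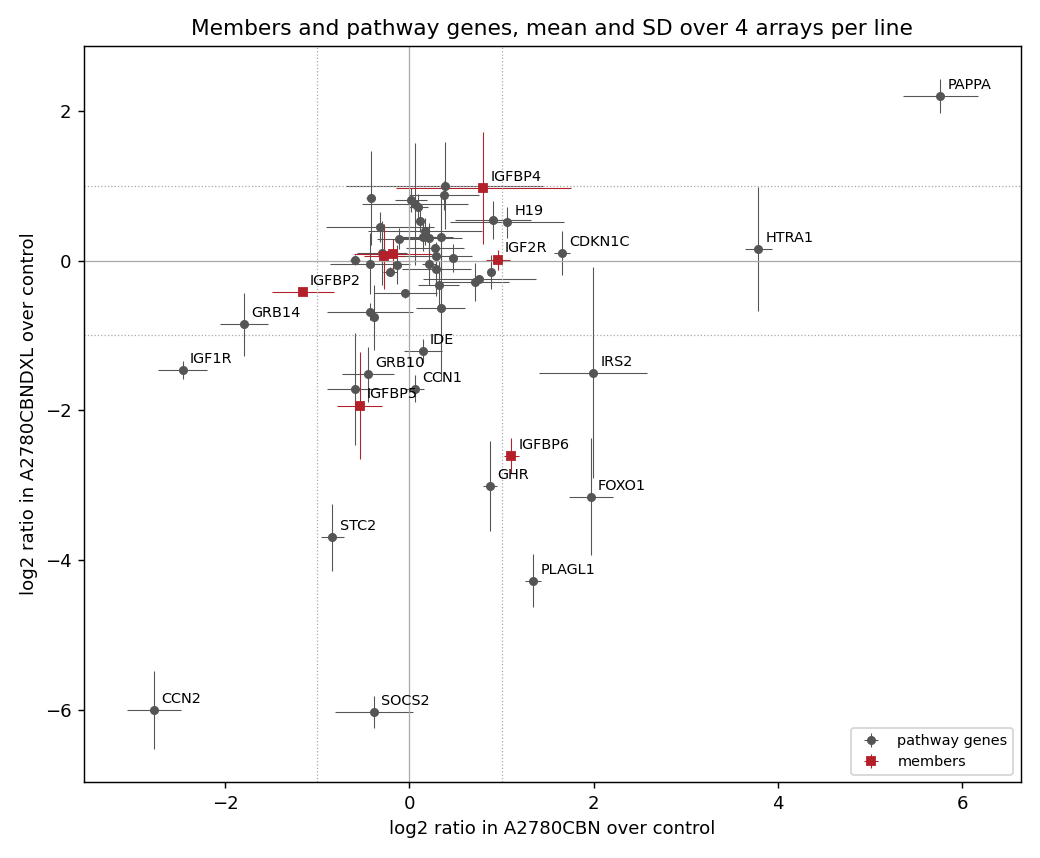
log2 ratio over control in A2780CBN (x axis) and A2780CBNDXL (y axis) of the members and pathway genes measured in at least one line, with the SD over arrays as bars and dotted lines at the 2-fold limit. Names are given for genes past the limit in a line and for IGF2R, IGFBP4 and IGFBP5, and values of a channel below background are drawn as measured. IGFBP6 at 1.11 and -2.61 lies on the same side of zero on both axes as FOXO1, PLAGL1 and GHR.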

How the data were processed

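RNA of each resistant line and of its co-cultured control was hybridized to 4 two-colour Agilent arrays. The authors deposited Feature Extraction output whose processed intensity was background-subtracted and dye-normalized, with coordinates on NCBI36, and the raw mean and background intensities, used for alternatives only. On forward arrays the labels put the resistant line in Cy5. The dye entries of the reverse arrays repeat the forward ones, and these arrays were turned over as their name states, so every sign rests on the forward labels. Spots marked as outliers were left out, and spots of a probe were averaged as log2 values. The brightest probe over all channels stood for a gene. A log2 ratio is the mean of the forward and the reverse mean. Bounds and channel differences used Aquantile scaling (limma 3.58.1, R 4.3.3). Both lines lay on both slides, and the slides differed in the version of Feature Extraction. The number of arrays limits the precision. The named genes were the members and the pathway genes past the limit or different between the lines. INSR was named outside this rule. Named too were the 3 genes nearest to a member changed and measured on all 8 arrays. The members, the pathway and marker lists and the motifs were chosen with earlier results of these data known. Rules were checked on simulated data. The planted changes were all larger than the 2-fold limit, so calls close to it were not checked this way. The 3-way ANOVA of the methods and limma served as alternatives, and their adjusted p-values measure array error. A2780DXL was not analysed here.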

Additional observations from a re-analysis of the deposited data

Results flagged for a closer look

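Genes stand here because every array of A2780CBN was above its control and every array of A2780CBNDXL below it, and because a channel of each line was well above background on each of its arrays. The difference between the lines was not tested, since each line is 1 sample. For IGFBP6 the log2 ratio in A2780CBNDXL minus that in A2780CBN was -3.71. For FOXO1 it was -5.12, for PLAGL1 -5.62 and for GHR -3.88. The second PLAGL1 probe gave -3.13. The resistant signals of FOXO1 and GHR in A2780CBNDXL were below background, so the size of their differences is not measured. In some settings both genes were under the limit in that line. The FOXO1 value in A2780CBN was likewise under the limit in some settings, with 0.58 at its lowest.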

How the results depend on the processing

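Leaving out one A2780CBN array at a time left 2 changed members in that line, and leaving out one A2780CBNDXL array gave 1 to 3 changed members there, 11 to 13 pathway genes, and 1 to 2 members that differ between the lines. IGFBP4 and IGFBP5 entered in A2780CBNDXL without array 1, IGFBP4 without array 4, and IGF2R as a difference between the lines without A2780CBNDXL array 2, where its log2 ratio was -0.05. Changed pathway genes of A2780CBN numbered 10 whichever array was left out. With normexp at an offset of 50, counts of changed members fell to 1 in A2780CBN and 0 in A2780CBNDXL, and pathway genes to 4 and 7. At an offset of 1, A2780CBN had 1 changed member, IGFBP2. With slide 2 alone, 3 members changed in A2780CBNDXL and 2 differed between the lines. Without the filter on dim probes, IGFBP5 joined IGFBP6, giving 2 in A2780CBNDXL and 2 between the lines. With signal required in both channels, 7 pathway genes changed in A2780CBNDXL. At a 1.5-fold limit, 2 members changed in A2780CBNDXL, 2 differed between the lines, and 18 and 20 pathway genes changed. At a 3-fold limit no member changed in A2780CBN, a count of 0. The 3-way ANOVA at adjusted p limits of 0.05 and 0.01 and limma, also with slide as a block, called the same members as the 2-fold rule. They kept its background filter and its 2-fold limit, and their error is that between arrays. The same calls are therefore no independent check. After removal of genes with a dye or slide term at an unadjusted p under 0.05, as in the methods, 0 members were left in each line and 7 and 6 pathway genes. Against the control channels of the other line, 1 member changed in A2780CBN (IGF2R; IGFBP2, at -2.01, was not counted because a control spot was left out) and 2 in A2780CBNDXL (IGFBP5 and IGFBP6), and IGF1R in A2780CBNDXL turned to 0.14. Why these values moved was not tested. Keeping outlier spots changed no call of a member, and the IGF2 probe on the minus strand made 3 changed members in A2780CBN. These last alternatives were chosen after seeing the data. No test across samples, paired or unpaired, was possible because each line is 1 sample and the lines share no second replicate number. Spots near background limit IGF1, IGFBP1, IGFBP5 and IGFBP7.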
